A study of Mus musculus with 2 samples.

Results

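Matrix metalloproteinases (MMPs), the ADAMTS proteinases and the tissue inhibitors of metalloproteinases (TIMPs) were described in the embryonic mouse heart by total RNA sequencing. The 38 genes were chosen by symbol from the deposited gene tables. No cutoff on their values was used, but earlier results of these data were known when they were chosen. They comprised 15 MMP, 19 ADAMTS and 4 TIMP genes of 43346 gene rows, and all 38 were found. The series holds 1 group of 2 libraries, both from hearts of the B6NCrl strain at embryonic day 14.5, with no mutant allele and no treatment given in the labels. Each library is labelled as the heart of a single pup, replicate 1 collected on July 15 and replicate 2 on July 17, and 10 ng of RNA longer than 200 nt was used with spike-in RNAs. There is no second condition, so the values describe levels in this tissue and how far the 2 hearts differed. Heart and collection day cannot be told apart, and neither can the sex marked by the sex-linked genes below.

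MMPs and ADAMTS proteinases are zinc enzymes that cut the extracellular matrix. They are made with a propeptide that keeps the enzyme inactive until it is removed, often by furin-like convertases. Most MMPs are secreted, while the membrane-type MMPs stay on the cell surface, where MMP14 activates pro-MMP2 with TIMP2 as the bridge between them. ADAMTS proteinases carry thrombospondin repeats that bind matrix, and different clades cut proteoglycans such as versican, the propeptides of fibrillar collagens, or fibrillin-rich microfibrils. In the developing heart the turnover of versican and hyaluronan accompanies trabeculation and the remodelling of cushions into valves. TIMPs occupy the active site of these enzymes with their N-terminal end, and TIMP3 is held in the matrix.

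Total expected counts were 2.85e+07 and 2.90e+07. Cardiomyocyte, endothelial, endocardial, epicardial and fibroblast markers were all at 1 TPM (the deposited level, scaled for transcript length and depth) or more in both libraries, and the lung list summed to 0 and 0.11 TPM. The labels call both samples a pool of male and female. Against this, the 4 Y-linked genes measured ran from 12.7 to 57.5 TPM in replicate 1 and were at 0 in replicate 2, and Xist was at 0.04 and 37.7 TPM. By these genes the libraries differ in sex. Every difference between the hearts given below is therefore also a difference between the sexes and the collection days. Red cell markers were at least 1.5-fold higher in replicate 1 for 7 of 7 genes and summed to 5.89% and 3.29% of all TPM, and 3 of 3 neuron and crest markers with a mean count of 100 or more were at least 1.5-fold higher in replicate 2. In bulk tissue, fewer cells of a type and less RNA per cell cannot be told apart. Values are therefore given for each library.

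The sequences below show the active site that defines the enzymes. They are coding sequence read 5′ to 3′ from the GRCm38 genome with GENCODE M21 transcripts. In the zinc-binding site the capitals mark the codons of the first zinc-binding histidine and the catalytic glutamate, the second histidine, the residue at the glycine position, and the third histidine. The first set holds the 5 most abundant MMPs, whose sites each lie inside a single exon.
Mmp2: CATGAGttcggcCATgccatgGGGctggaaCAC
Mmp14: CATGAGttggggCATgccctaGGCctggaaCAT
Mmp23: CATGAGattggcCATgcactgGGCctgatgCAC
Mmp15: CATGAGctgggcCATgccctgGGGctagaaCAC
Mmp11: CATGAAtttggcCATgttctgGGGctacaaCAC

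The Mmp2 site is at chr8:92839279-92839311 on the plus strand in exon 8 of 13, and the Mmp14 site at chr14:54437627-54437659 on the plus strand in exon 5 of 10. The Mmp23 site is at chr4:155651528-155651560 on the minus strand in exon 5 of 8. The Mmp15 site is at chr8:95368585-95368617 on the plus strand in exon 5 of 10, and the Mmp11 site at chr10:75926931-75926963 on the minus strand in exon 5 of 8. All 15 MMP genes held this pattern with a glycine codon, that is histidine, glutamate, any 2 codons, histidine, any 2 codons, glycine, any 2 codons, histidine.

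The second set holds ADAMTS genes and is shown because the glycine position splits the family. In these genes the site runs across an exon junction, so the interval given includes an intron. The first 5 lines carry an asparagine codon in capitals at that position and the last 3 a glycine codon.
Adamts1: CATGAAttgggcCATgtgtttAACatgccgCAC
Adamts4: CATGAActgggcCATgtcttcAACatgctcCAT
Adamts9: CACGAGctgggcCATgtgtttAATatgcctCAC
Adamts15: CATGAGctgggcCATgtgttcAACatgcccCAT
Adamts20: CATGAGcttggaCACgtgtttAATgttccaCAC
Adamts5: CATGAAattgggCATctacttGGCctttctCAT
Adamts10: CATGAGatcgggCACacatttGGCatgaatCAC
Adamts2: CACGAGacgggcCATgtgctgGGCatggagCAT

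The Adamts1 site spans exons 3-4 of 9 at chr16:85799191-85799545 on the minus strand. The Adamts10 site spans exons 9-10 of 25 at chr17:33538157-33538279 on the plus strand. Of the 19 ADAMTS genes, 13 held the glycine form and 5 the asparagine form, while Adamts8 held neither. The 5 with asparagine are all in the group of 7 proteoglycan-cleaving ADAMTS genes, and the other two of that group are Adamts5, with glycine, and Adamts8. Over 21888 protein-coding genes the glycine form was present in 69 (0.315%) and the asparagine form in 5 (0.0228%), the same 5 genes. The asparagine form was searched for after Adamts1 had been seen to lack the glycine form.

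For the inhibitors, the sequence shown is the start of the mature protein, where the first cysteine reaches into the active site of the enzyme. The capitals mark the codons of the 2 cysteines. The pattern searched for in frame in the coding sequence was cysteine, any codon, cysteine, any codon, proline. It was found in 4 of 4 TIMP genes and was not counted over other genes.
Timp1: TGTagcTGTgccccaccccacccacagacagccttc
Timp2: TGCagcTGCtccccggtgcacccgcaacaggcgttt
Timp3: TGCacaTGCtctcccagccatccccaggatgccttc
Timp4: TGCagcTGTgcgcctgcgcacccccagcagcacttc

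These lie at chrX:20871111-20871146 (plus strand, exon 2 of 6), chr11:118354977-118355012 (minus strand, exon 1 of 5), chr10:86300923-86300958 (plus strand, exon 1 of 5) and chr6:115251656-115251691 (minus strand, exon 1 of 5).

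Of the 38 genes, 24 reached 1 TPM in both libraries and are called detected. The same was true of 31.5% of all gene rows and of 56.8% of the protein-coding rows. By family, 8 of 15 MMPs, 13 of 19 ADAMTS genes and 3 of 4 TIMPs were detected. The median of the members' mean level was 3.755 TPM, beside 3.255 TPM over the protein-coding rows and 0.05 TPM over all rows. As means ± SD (n = 2), the 4 highest genes were Mmp2 at 87.3 ± 2.94, Mmp14 at 80.3 ± 6.21, Timp3 at 71.6 ± 1.06 and Timp2 at 70.9 ± 3.51 TPM. MMP levels spanned from 0 to 89.4 TPM, and ADAMTS levels from 0 to 35.9 TPM.

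**Figure D1:**
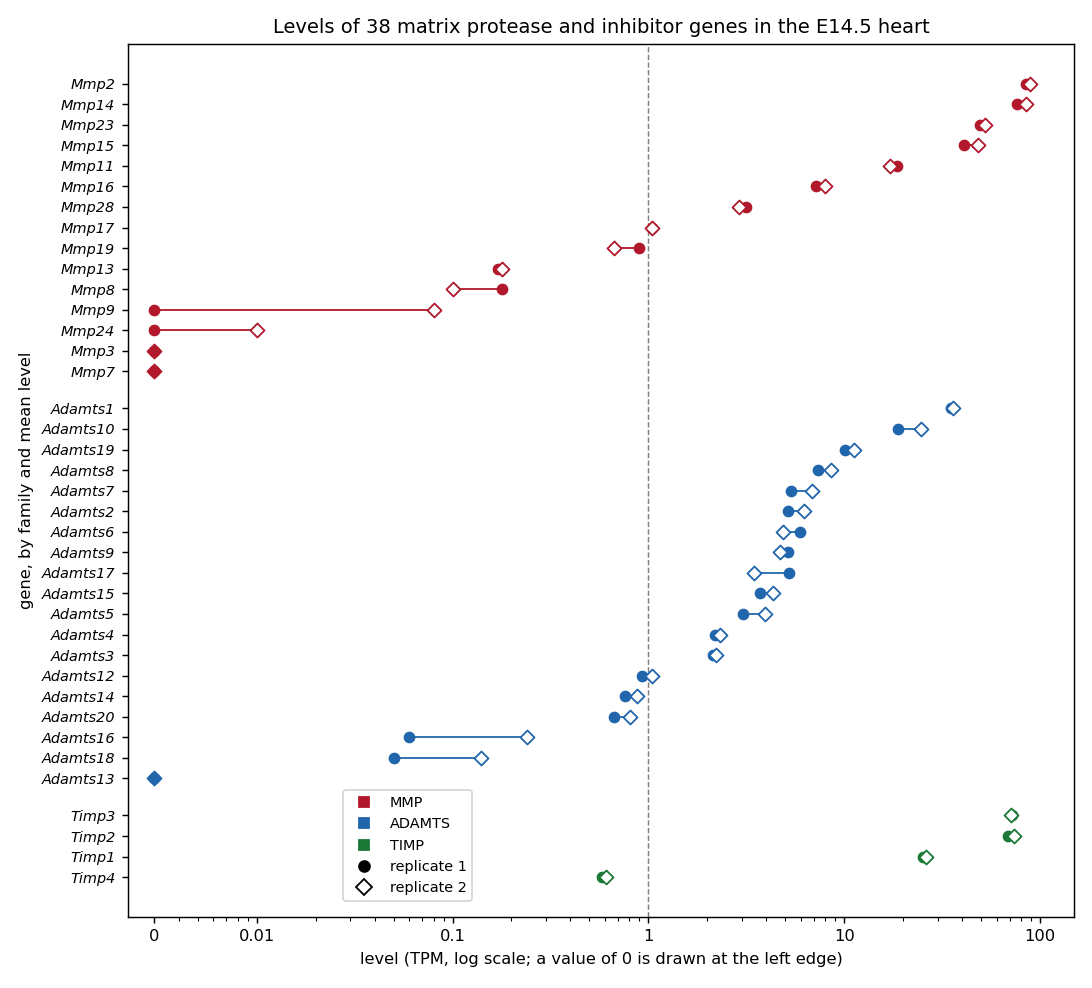
Level of each of the 38 genes in TPM on a log axis, by family and mean level, with filled circles for replicate 1 and open diamonds for replicate 2; the dashed line is the detection level of 1 TPM. Mmp2, Mmp14, Timp3 and Timp2 stand at the right end above 68 TPM in both libraries, while Mmp3, Mmp7 and Adamts13 were at 0 in both.

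Among the secreted MMPs, Mmp2 carried most of the signal. This gene (gelatinase A, which cuts denatured collagen and basement membrane collagen; chr8:92827291-92853420) was the highest of the 38 genes, with 85.2 and 89.4 TPM. It held 78.7% and 81.0% of the summed level of the 9 secreted MMPs, which came to 108 and 110 TPM. Mmp11 (stromelysin 3, activated inside the cell by furin) was at 18.7 and 17.1 TPM. Mmp28 (epilysin) was at 3.14 and 2.89 TPM. These 3 were the detected secreted MMPs.

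The other 6 secreted MMPs were below 1 TPM. Mmp19 was at 0.90 and 0.67 TPM, on 62.4 and 46.7 counts. The collagenase gene Mmp13 was at 0.17 and 0.18 TPM, and the neutrophil collagenase gene Mmp8 at 0.18 and 0.10 TPM, on 9 and 5 counts. Mmp9 (gelatinase B) had no counts in replicate 1 and 5 counts in replicate 2, and was listed at 0 and 0.08 TPM. Mmp3 (stromelysin 1) and Mmp7 (matrilysin) had no counts in either library, which at 3 counts allows up to 0.0844 and 0.148 TPM in replicate 1. So of the 2 gelatinases one was the top gene of the set and the other had at most 5 counts. Mmp8 and Mmp9 are also made by neutrophils, and the neutrophil list had 2 of 6 markers detected and summed to 9.79 TPM in replicate 1 and 29.8 TPM in replicate 2, with Elane at 0.12 and 0.35 TPM and Mpo at 0.07 and 0.77 TPM. The part of these cells in the low counts of Mmp8 (9 and 5) and Mmp9 (0 and 5) was not tested.

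Of the 6 membrane-bound MMPs 5 were detected, and together they exceeded the secreted ones, at 175 and 194 TPM. The order of these sums depends on Mmp23 being counted as membrane-bound. Mmp14 (MT1-MMP, a collagenase of the cell surface; chr14:54431612-54445364) was at 75.9 and 84.7 TPM. Mmp23, a type II membrane protein, was at 49.2 and 52.3 TPM, and Mmp15 (MT2-MMP) at 41.1 and 48.4 TPM. Each of these was higher in replicate 2. The order of Mmp23 and Mmp15 holds for gene totals, which the sums also use, and not for protein-coding transcripts. On its protein-coding transcript Mmp23 was at 30.3 and 32.7 TPM (61.5% and 62.6% of its TPM), with the rest on retained-intron transcripts. The only annotated transcript of Mmp15 is protein coding. Mmp16 (MT3-MMP) was at 7.22 and 8.0 TPM, and Mmp17, which is held by a glycolipid anchor, was at the detection level with 1.05 and 1.04 TPM. Mmp24 (MT5-MMP, known from the nervous system) was listed at 0 and 0.01 TPM. Mmp14 was 10.5-fold above Mmp16 in replicate 1 and 10.6-fold above it in replicate 2, and 1.85-fold and 1.75-fold above Mmp15.

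Among the proteoglycan-cleaving ADAMTS genes, Adamts1 led. It lies at chr16:85793827-85803113, cuts versican, and was at 35.0 and 35.9 TPM, which was 61.3% and 59.3% of the summed level of its group. Adamts8 followed with 7.37 and 8.56 TPM. The other versican and aggrecan proteinases were lower. Adamts9 was at 5.17 and 4.69 TPM, Adamts15 at 3.71 and 4.31 TPM, Adamts5 at 3.05 and 3.95 TPM and Adamts4 at 2.19 and 2.31 TPM. The last of the 7, Adamts20, was below the detection level with 0.67 and 0.81 TPM. Adamts1 was 15.9-fold and 15.5-fold above Adamts4, and 11.5-fold and 9.06-fold above Adamts5. Adamts1 and Adamts5 lie close together on chromosome 16, both on the minus strand.

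Of the 3 procollagen N-proteinase genes 2 were detected. Adamts2, which trims fibrillar procollagens, was at 5.14 and 6.22 TPM. Adamts3, which also processes VEGF-C together with CCBE1, was at 2.14 and 2.21 TPM. Adamts14 was below the detection level at 0.76 and 0.88 TPM. Their order was the same in both hearts, and Adamts2 was 2.40-fold and 2.81-fold above Adamts3.

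Of the 4 genes whose proteins act on fibrillin microfibrils or on cartilage oligomeric matrix protein (COMP), Adamts10 had the highest gene total, with 18.9 and 24.7 TPM. Its fibrillin-associated relative Adamts6 was at 5.92 and 4.86 TPM, so that the 2 genes differed in opposite directions between the hearts. The COMP-cutting Adamts7 was at 5.34 and 6.86 TPM. Adamts12 straddled the detection level with 0.93 and 1.04 TPM. The ratio of Adamts10 to Adamts6 was 3.19 in replicate 1 and 5.08 in replicate 2. This ranking and ratio hold for gene totals and not for protein-coding transcripts. On its protein-coding transcript Adamts10 was at 2.45 and 5.02 TPM. The only annotated transcript of Adamts6 is protein coding, at 5.92 and 4.86 TPM.

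The remaining ADAMTS genes spread widely. Adamts19, a gene tied to valve disease in people and mice, was the third highest of the 19 with 10.1 and 11.2 TPM. Adamts17 was at 5.24 and 3.48 TPM. Adamts16 had 5 and 25 counts (0.06 and 0.24 TPM) and Adamts18 had 6 and 16 counts (0.05 and 0.14 TPM). Adamts13, the proteinase of von Willebrand factor made mainly in liver, had no counts in either library, which at 3 counts allows 0.0519 TPM in replicate 1.

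Of the inhibitors, Timp3 and Timp2 were close to each other and Timp1 was lower. Timp3 (chr10:86300372-86349506) was at 72.4 and 70.9 TPM and Timp2 (chr11:118301069-118355740) at 68.4 and 73.4 TPM. Their order differed between the hearts, 1.06-fold in favour of Timp3 in replicate 1 and 1.04-fold in favour of Timp2 in replicate 2. Timp1 (chrX:20870166-20874735) was at 25.2 and 26.3 TPM, 2.87-fold and 2.70-fold below Timp3. Timp4, known as the TIMP of the adult heart, was at 0.58 and 0.61 TPM on 16 and 17 counts, 123-fold and 114-fold below Timp3. The 3 genes of the MMP14, TIMP2 and MMP2 activation complex were thus among the 4 highest of the 38, and Mmp2 exceeded Timp2 by 1.25-fold and 1.22-fold. The summed TIMP level was 167 and 171 TPM, against 283 and 305 TPM for the MMPs and 112 and 122 TPM for the ADAMTS genes. The ratio of summed TIMP to summed MMP transcripts was 0.589 and 0.561.

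**Figure D2:**
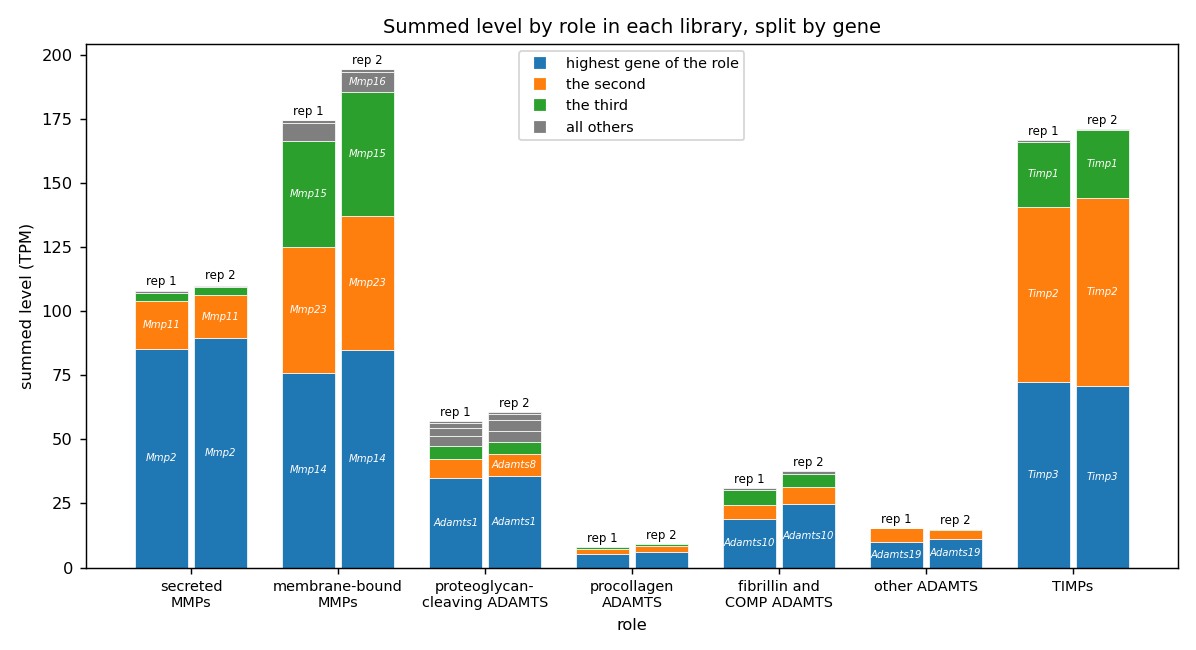
Summed level in TPM for each role, with the left bar of each pair for replicate 1 and the right bar for replicate 2, split by gene; the axis starts at 0 and names are written on segments of 8 TPM or more. Mmp2 made up most of the secreted bar and Mmp14, Mmp23 and Mmp15 most of the membrane-bound bar, at 174.5 TPM in replicate 1 and 194 TPM in replicate 2.

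Above Adamts8 in the order of the 24 detected genes, only the neighbours Timp3 and Timp2 overlapped. In 10 of the 23 neighbouring pairs in the order of mean level, the ranges of the 2 hearts overlapped. From Adamts7 down to Mmp28 each gene overlapped the next (Adamts7, Adamts2, Adamts6, Adamts9, Adamts17, Adamts15, Adamts5 and Mmp28), so ranges did not separate neighbours among these 8. Compared within each library, Adamts7 was above Adamts2, Adamts6 above Adamts9 and Adamts15 above Adamts5 in both hearts. The order of the other neighbours among the 8 differed between the hearts. Adamts8 overlapped Mmp16 and Adamts4 overlapped Adamts3, with the first of each pair higher within both libraries. Of the 23 ratios of related genes examined, 22 kept their direction in both hearts, Timp3 to Timp2 being the exception, and 15 were at least 2-fold in both. Both genes were detected in 13 of these pairs, of which 6 were at least 2-fold in both. The other pairs rest on a gene below 1 TPM, in some at 0 with 0.01 TPM added to every value. With 2 libraries a two-sided exact sign test cannot go below a p of 0.5, so no ratio was tested.

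Between the 2 hearts the members differed about as much as genes in general. The difference is given as log2 of replicate 2 over replicate 1 on counts scaled by the trimmed mean of M values, and a gene was called when it was at least 1.5-fold apart at a mean count of 100 or more. Of the 24 members with that count, 0 were called, beside 1.95% of all 11958 genes with that count (233 genes). For 24 genes, 0 calls is close to that share, so it does not set the members apart. The median absolute difference was 0.11 for the members and 0.10 for all genes. The 90th percentile was 0.33 and 0.30, while the SD of the difference was lower for the members, at 0.19 against 0.32. There is 1 library per heart, so no test of the hearts was possible and intervals (exact Clopper-Pearson, 95%) cover counting error only.

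More of the members were higher in replicate 2 than in replicate 1. Of the 24, 19 were higher in replicate 2 and 5 were higher in replicate 1, beside 48.9% of all genes higher in replicate 2, and the median difference was 0.06 beside -0.0038 for all genes. These are counts of signs, and for most of the 19 the interval for counting error included 0. It lay above 0 for Mmp14, Mmp15, Mmp16, Adamts2, Adamts5, Adamts7, Adamts8 and Adamts10. It lay below 0 for Adamts6, Adamts17 and Timp3. Scaling by spike-in totals moved the median of all genes to 0.11 and gave 21 of 24 members (Adamts9 and Timp3 changed side) beside 77.7% of all genes, while scaling by total gene counts gave 19 of 24 beside 57.7%. Under these 3 scalings and DESeq2's size factors the members' median lay 0.06 above that of all genes. By TMM scaling all 4 membrane-bound MMPs with enough counts were higher in replicate 2, as were 2 of 3 secreted MMPs, 5 of 6 proteoglycan-cleaving, 2 of 2 procollagen (Adamts3 by a log2 difference of 0.00), 3 of 4 fibrillin and COMP and 1 of 2 other ADAMTS genes, and 2 of 3 TIMPs. In the same libraries 13 of 15 collagen and glycoprotein substrate genes and 4 of 5 fibroblast markers were higher in replicate 2, and all 7 red cell markers were higher in replicate 1. Other lists were mixed at a mean count of 100 or more. Higher in replicate 2 were 6 of 6 ADAMTS-like genes, 4 of 7 proteoglycan substrate genes and 5 of 10 other metzincin genes. The same held for 2 of 5 smooth muscle and pericyte markers and 1 of 5 endothelial markers. The part of these shifts in the members' direction was not tested.

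The largest single differences stayed under 1.5-fold. Mmp16 went from 469 to 628 counts, a log2 difference of 0.37 and a fold of 1.29 (1.14 to 1.46). Adamts5 went from 510 to 664 counts, a log2 difference of 0.33 (0.16 to 0.50), and Adamts10 from 1092 to 1377 counts, 0.28 (0.16 to 0.40). For these genes the interval for counting error excluded 0 on the side of replicate 2. In the other direction Adamts6 went from 585 to 483 counts, a log2 difference of -0.33 (-0.51 to -0.15). Mmp28 had the largest difference, -0.39, on 113 and 89.6 counts, and its interval included 0 (-0.80 to 0.03). Mmp15, on 3653 and 4328 counts, differed by 0.19 (0.13 to 0.25). Adamts1, Adamts3 and Timp1 differed by 0.00, and Mmp2 by 0.02. Timp1 is on the X chromosome, and its similar counts of 404 and 420 stood beside the opposite Xist levels of the 2 libraries.

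**Figure D3:**
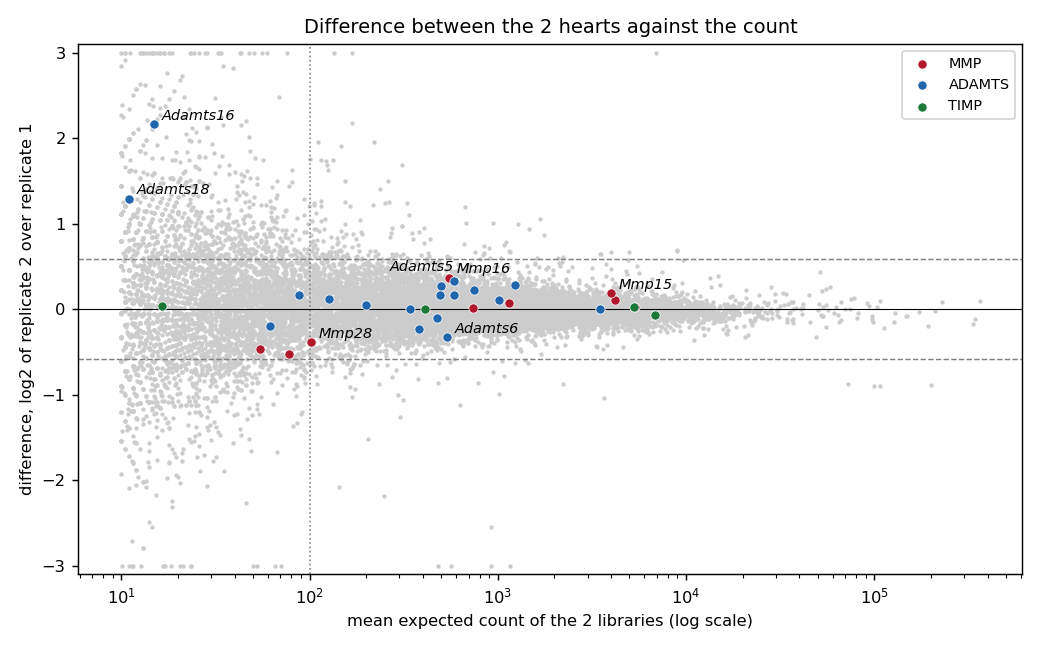
Difference between the 2 hearts (log2 of replicate 2 over replicate 1) against the mean expected count on a log axis, for all genes with a mean count of 10 or more (grey, clipped at 3) and for members in colour; dashed lines mark 1.5-fold and the dotted line the count minimum of 100. Members to the right of the dotted line all lie between the dashed lines, and Adamts16 and Adamts18, on at most 25 counts, lie above them.

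Below the count minimum the differences were wider. Adamts16 was 4.47-fold higher in replicate 2 (1.81 to 16.1). Adamts18 was 2.45-fold higher, with an interval from 0.954 to 8.01 that included 1. Mmp17 went the other way, from 90 to 65 counts, a log2 difference of -0.52 (-1.01 to -0.05). These rest on few reads and are given as values.

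The transcripts behind the gene levels were compared next, since a gene total can hold transcripts that do not encode the enzyme. Of the 24 detected genes, 7 had 1 annotated transcript in the tables, among them Mmp2, Mmp14 and Mmp15, and 17 had more. The same transcript led in both hearts for 16 of these 17, beside 90.2% of all 9360 genes of this kind. The leading transcript of replicate 1 was typed as protein coding for 15 of the 17, and in replicate 2 this held for Adamts9 as well. The median share of the leading transcript in the gene's TPM, taken as a mean of both libraries, was 78.7%. Neither value was computed over all genes, so they describe the members alone.

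**Figure D4:**
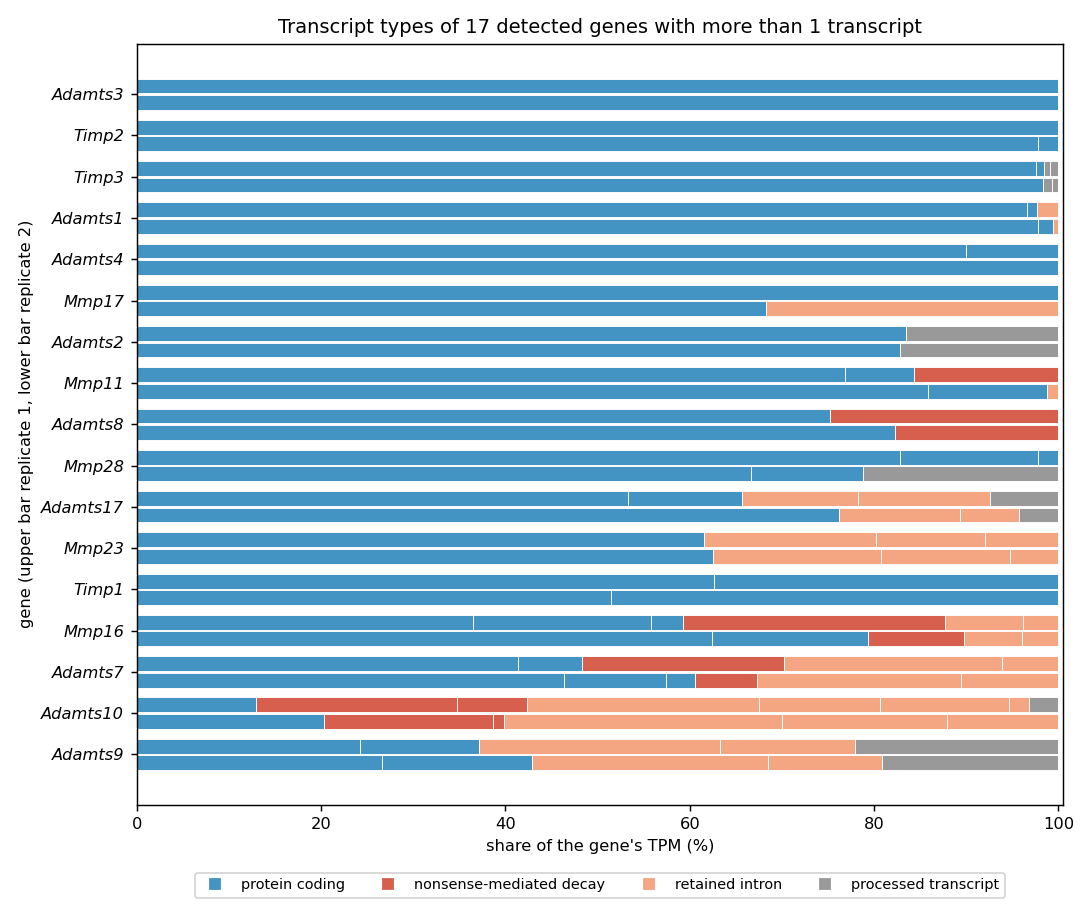
Share of each gene's TPM by transcript for the 17 detected genes with more than 1 transcript, coloured by annotated type, with the upper bar for replicate 1 and the lower bar for replicate 2. Adamts10 and Adamts9, at the bottom, are the genes whose protein-coding share of TPM stayed below 50% in both libraries.

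Adamts10 and Adamts9 had the lowest protein-coding shares of TPM among the 17. Of the Adamts10 level, 13.0% and 20.3% lay on its protein-coding transcript, that is 2.45 and 5.02 TPM. Its leading transcript by TPM, Adamts10-210, is a retained-intron transcript of 721 nt that held 25.1% and 30.1% of the TPM but 5.67% and 7.08% of the counts. For Adamts9, 37.1% and 42.9% of the TPM lay on protein-coding transcripts, and the leading transcript changed from the retained-intron Adamts9-203 in replicate 1 to the protein-coding Adamts9-201 in replicate 2, with shares of 26.1% and 24.2% in replicate 1. By counts this did not hold for Adamts9: its protein-coding transcripts had 59.9% and 64.6% of the counts, and Adamts9-201 led in both libraries with 42.7% and 44.4%. For Adamts10 the protein-coding share was 18.5% and 30.2% of the counts. A protein-coding share of TPM below 50% in both libraries was seen in 2 of 17 members (11.8%) and in 785 of 9011 protein-coding genes with more than 1 transcript (8.71%). The libraries were made from total RNA, and the part of unspliced RNA in these shares was not tested.

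Other genes shifted between transcripts without changing their leader. The full-length Mmp16-201 held 36.4% of Mmp16 in replicate 1 and 62.4% in replicate 2, while the nonsense-mediated decay transcript Mmp16-206 held 28.4% and 10.4%. Protein-coding Mmp16 thus went from 4.28 to 6.35 TPM while the gene total went from 7.22 to 8.0 TPM. Adamts17-201 held 53.3% and 76.1% of Adamts17. The TPM of Adamts17 differed by more than its counts, 5.24 and 3.48 TPM against 407 and 359 counts, and its effective length was 3711 nt in replicate 1 and 4900 nt in replicate 2. Mmp17 showed the reverse, 90 and 65 counts at 1.05 and 1.04 TPM, with 3.78 counts on the 646 nt retained-intron transcript Mmp17-202 giving 31.7% of its TPM in replicate 2. Timp1 was shared between 2 protein-coding transcripts, Timp1-202 with 62.7% and 51.5% and Timp1-201 with the rest.

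Several members share ground with other genes, which matters because the use of strand in counting is not stated in the sources used here. Of the 38 genes, 18 overlap another annotated gene, and 11 of them overlap its exons. Of the 4 TIMP genes, 3 lie inside synapsin genes on the opposite strand. Timp1 lies in Syn1 (0.06 and 0.29 TPM), Timp3 in Syn3 (0.59 and 0.85 TPM, 1733 nt of shared exon) and Timp4 in Syn2 (0.92 and 1.28 TPM, 90 nt). For Timp1 and Timp3 the host was far below the inhibitor, while Syn2 was above Timp4. Mmp11 overlaps 155 nt of exons of the abundant Chchd10 (397 and 399 TPM) on the opposite strand. Without strand, reads of these overlaps cannot be told apart. The deposited posterior SD of the count, which measures reads shared among genes, was above 0 for 7 members and was 5.66 and 5.79 counts for Adamts9.

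The promoters were examined because Mmp3, Mmp7, Mmp8 and Mmp13 lie in a cluster on chromosome 9 and were all at or under 0.18 TPM. RefSeq promoter windows (GRCm38.p6, 250 bases before to 50 after the start) were matched for 24 of the 38 genes, with 26 windows. The genes with no match were Mmp2, Mmp9, Mmp16, Mmp17, Mmp19, Adamts4, Adamts5, Adamts6, Adamts7, Adamts8, Adamts10, Adamts15, Adamts16 and Adamts19. The 80 bases before the start are shown for the 3 cluster genes that hold both motifs described next and for 3 of the abundant genes. Capitals mark the TATA motif TATAAA (either strand, TTTATA), the AP-1 motif TGAGTCA (either strand, TGACTCA) and each CG dinucleotide; none of these motifs overlap one another.
Mmp3: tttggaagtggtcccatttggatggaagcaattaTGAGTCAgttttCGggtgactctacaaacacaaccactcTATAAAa
Mmp7: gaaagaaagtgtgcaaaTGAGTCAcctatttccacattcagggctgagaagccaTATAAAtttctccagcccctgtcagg
Mmp13: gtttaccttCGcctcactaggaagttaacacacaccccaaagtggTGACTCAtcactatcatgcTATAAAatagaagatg
Mmp14: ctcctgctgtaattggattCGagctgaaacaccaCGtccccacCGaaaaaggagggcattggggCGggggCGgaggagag
Adamts1: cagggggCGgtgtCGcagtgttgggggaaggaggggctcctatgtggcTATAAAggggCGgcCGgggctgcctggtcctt
Timp1: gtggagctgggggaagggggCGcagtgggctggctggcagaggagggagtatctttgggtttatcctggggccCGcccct

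In the order shown, these stretches are chr9:7445742-7445821, chr9:7692010-7692089, chr9:7272434-7272513 and chr14:54431518-54431597 on the plus strand, chr16:85803114-85803193 on the minus strand and chrX:20870086-20870165 on the plus strand. In the whole windows, Mmp3, Mmp13 and the first of 2 Mmp7 windows each held both motifs and 1 CG dinucleotide. The other Mmp7 window held neither motif and 7 CG dinucleotides, and the window of Mmp8, the fourth member of the cluster, held a TATA motif, no AP-1 motif and 4 CG dinucleotides. Both motifs were present in 0.941% of all 32851 windows. A TATA motif was present in 13.6% of all windows and an AP-1 motif in 5.2%. Of the 14 windows of detected members, 1 held a TATA motif, that of Adamts1, and 0 an AP-1 motif. Of the 12 windows of members that were not detected, 4 held a TATA motif and 3 an AP-1 motif. The median number of CG dinucleotides was 21 (8 to 41) in the windows of detected members and 5.5 (1 to 44) in the others, beside 7 over all windows. Mmp24, Adamts14, Adamts18 and Adamts20 went against this, with 22 to 44 CG dinucleotides and levels below 1 TPM. No such split was computed for detected and undetected genes at large, so it is not shown to be particular to the members. These counts describe the windows, and no binding was measured.

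**Figure D5:**
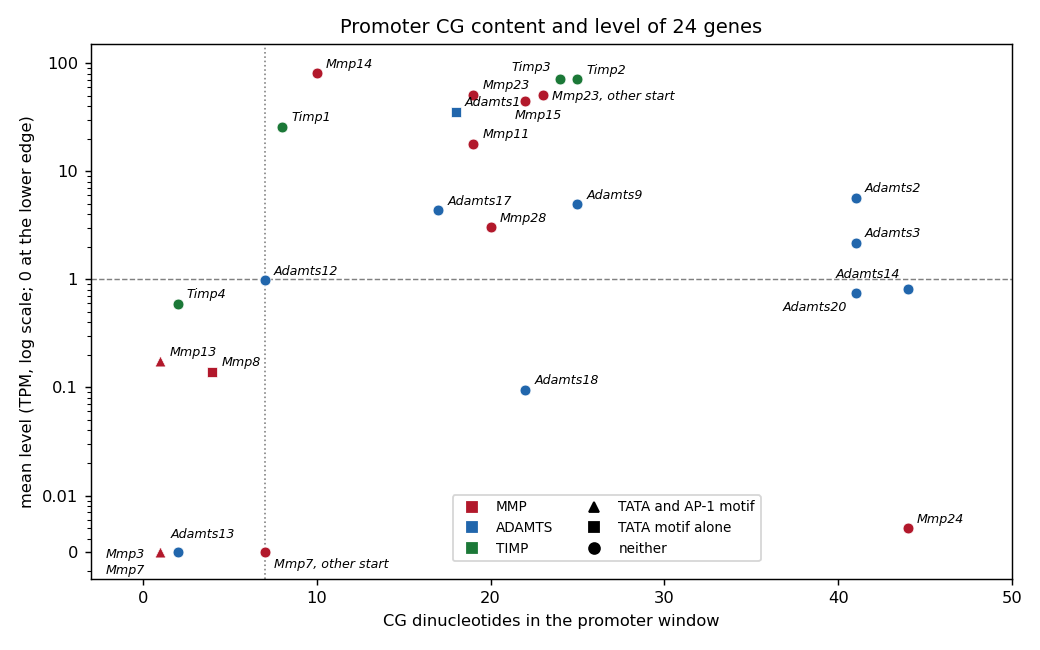
Mean level in TPM (log axis) against the number of CG dinucleotides in the promoter window for 24 genes, with 2 starts each for Mmp7 and Mmp23; triangles hold a TATA and an AP-1 motif, squares a TATA motif alone, and lines mark 1 TPM and the median of all windows. Mmp3, Mmp13 and the first Mmp7 start sit at 1 CG dinucleotide and at or under 0.18 TPM, the other Mmp7 start sits at 7, and Mmp24, at 44, was also near 0.

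Regulators and substrates of these enzymes were listed as context. Of the 7 proprotein convertase genes listed, 5 were detected. Furin was highest with 14.0 and 19.6 TPM, ahead of Pcsk5 and Pcsk7. In the plasminogen system 4 of 8 were detected, led by the inhibitor gene Serpine2 (99.1 and 120 TPM) and the activator gene Plat (36.04 and 38.5 TPM), while plasminogen itself (Plg) had 1 and 3 counts. Of the 13 further inhibitors and partners 10 were detected, led by Bsg, the MMP inducer basigin, with 773 and 935 TPM. The membrane inhibitor Reck was at 7.86 and 9.03 TPM, below the 3 abundant TIMPs. None of the genes of these 3 lists with a mean count of 100 or more was 1.5-fold apart between the hearts.

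Among the proteoglycan substrates the decorin gene Dcn was highest, at 183 and 211 TPM, followed by Lum (97.8 and 118 TPM) and Bgn (88.2 and 104 TPM). The versican gene Vcan was at 56.1 and 55.1 TPM and the aggrecan gene Acan at 1.03 and 0.96 TPM. All 15 collagen and glycoprotein substrate genes were detected, led by Col3a1 (634 and 781 TPM), Col1a1 (348 and 397 TPM), Col1a2 and Fn1. Eln, the elastin gene, was the only one of them at least 1.5-fold apart, with a log2 difference of 0.69 towards replicate 2. Of the 7 ADAMTS-like genes, which resemble ADAMTS proteins but lack the proteinase domain, 5 were detected and Adamtsl3 was 1.5-fold or more higher in replicate 2 (log2 difference 0.91, on 76 and 149 counts). Of 20 other genes of the metzincin families 10 were detected, led by Adam10 (54.6 and 56.1 TPM), Adam9, the procollagen C-proteinase gene Bmp1 (27.7 and 28.8 TPM) and Adam15.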

How the data were processed

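The authors deposited a gene and a transcript table per library. Assembly mm10 and GENCODE M4 are per the deposited readme files; no source used here names the aligner, the quantifier or the use of strand. The deposited expected counts are estimates per gene without depth scaling, per the file headers. The deposited TPM and FPKM are scaled for length and depth (FPKM was not used), and the deposited transcript share is a percent, here recomputed from TPM. Names and positions are from GENCODE M21. Counts, rounded for scaling alone, were scaled by TMM (edgeR 4.0.16, R 4.3.3; prior 0.5), and levels are TPM. DESeq2 1.42.0 gave an alternative scaling. Depth was 2.75e+07 and 2.79e+07 counts on gene rows. The difference and its interval were tested on simulated data. Replicates are labelled as single hearts. Over 16387 genes the chi-square between them averaged 14.2 per gene, so they are not copies. All 38 members are accounted for. Of context lists, up to 4 genes of highest level and any at least 1.5-fold apart are named, and Plg, Reck, Acan, Vegfc and Ccbe1 were named after their values were seen. The members and lists were chosen with earlier results of these data known.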

Additional observations from a re-analysis of the deposited data

How the results depend on the processing

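The number of detected genes was 24, and 15 at a threshold of 5 TPM. At thresholds of 0.5 and 2 TPM it was 29 and 23, and without each replicate it was 24 to 25. Family levels shifted when TPM was rescaled over gene rows alone, with medians of 1.13 (MMP), 4.33 (ADAMTS) and 52.1 (TIMP) and sums of 317, 126 and 182 TPM. The median MMP level was 1.175 TPM with posterior mean TPM. Over detected members alone the medians were 31.3, 5.39 and 70.9 TPM. Without each replicate the medians ran from 3.71 to 3.95 TPM (ADAMTS) and from 46.8 to 48.6 TPM (TIMP). The count of members at least 1.5-fold apart was 0 in 8 of the 10 settings, 2 with a count minimum of 10 (Adamts16 and Adamts18, beside 10.3% of all genes) and 5 with none (with Mmp8, Mmp9 and Mmp24, beside 16.7%). The median share of the leading transcript was 88.6% by expected counts, and 76.1 to 76.8% without each replicate. With spike-in totals the differences of Adamts9 (0.0074) and Timp3 (0.05) changed sign; Timp3 over Timp2 changed sign without replicate 1. Members under about 100 counts have wide intervals, and 2 hearts allow no test. No paired analysis was possible because the series holds 1 group.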

Other observations

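Metzincin genes outside the 38 added a contrast between the hearts, chosen after their values were seen. Mmp12, the macrophage metalloelastase gene, had 46 counts in replicate 1 and 11 in replicate 2, and Mmp25, a membrane-type MMP of leukocytes, had 39 and 13 counts. Both were below the count minimum of 100. The macrophage markers summed to 168 and 160 TPM and the neutrophil markers to 9.79 and 29.8 TPM in the same libraries. Mmp1a, Mmp1b, Mmp10, Mmp20 and Mmp27 had no counts in either library. Ccbe1, the partner of Adamts3 in VEGF-C processing, had 6 and 37 counts, while Adamts3 had 335 and 348 and Vegfc 644 and 692. This too was chosen after the values were seen.

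With posterior mean TPM, genes without counts were given values above 0. Mmp9 was at 0.34 and 0.42 TPM on that scale, against 0 and 0.08 TPM, and Adamts13 was at 0.12 TPM in both libraries with no counts.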
